A study of Mus musculus with 18 samples.

Results

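The interferon-stimulated genes described here are 39 mouse genes whose transcription is switched on by interferons. They were followed in the lungs of 18 male MutaMouse given the 4PAH-Mix, a defined mixture of the polycyclic aromatic hydrocarbons (PAHs) benzo(a)pyrene (BaP), benz(a)anthracene, benzo(b)fluoranthene and chrysene. MutaMouse is a transgenic strain, derived from BALB/C and DBA/2 mice, that carries a reporter used to score mutations. The reporter is shared by all groups, and the mice were about 12 weeks old and housed singly. They were gavaged daily for 28 days with olive oil (vehicle, mice 1 to 5) or with the mixture in olive oil at 12.5 (low, mice 6, 7, 9 and 10), 25 (medium, mice 11 to 15) or 50 (high, mice 16, 17, 18 and 20) mg BaP equivalents per kg body weight per day, and lungs were taken 72 h after the last dose. On each array the lung RNA of a mouse carried Cy5, and a pool from cell lines (Universal Mouse Reference RNA) carried Cy3, with no dye swap. Each value below is a log2 ratio of lung over reference, or a difference between such ratios, unless stated otherwise.

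Of the 39 genes, 37 had a probe that could be matched by its RefSeq accession, among 20660 genes matched on the array. No probe was matched for Mx1 or Mx2. Where a gene had 2 probes, as 9 of the 37 did, the one with the higher mean intensity was used. All 37 were well above background in the lung channel on all 18 arrays, and no spot of theirs was saturated. These are ratios to a reference pool from bulk lung, so fewer cells of a type and less RNA per cell cannot be told apart, and levels are not compared between genes.

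Interferons are secreted proteins released when cells sense foreign or misplaced nucleic acid or when lymphocytes are activated. Type I interferons signal through Ifnar1 and Ifnar2 to a complex that holds Stat2 and Irf9 and binds the interferon-stimulated response element (ISRE). Type II interferon (Ifng) signals through Ifngr1 and Ifngr2 and acts at the gamma-activated site (GAS). In lung the genes induced in this way are best known from viral infection. The Oas, Ifit, Isg15, Rsad2 and Mx genes are the classical type I targets, whereas Irf1, the guanylate-binding proteins (Gbp), the immunity-related GTPases (IRG) and the antigen-processing genes Tap1, Psmb8 and Psmb9 respond strongly to type II interferon.

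Promoter sequence was matched for 30 of the 37 genes in RefSeq's mouse assembly GRCm38.p6, as windows of 250 bases before to 50 bases after the transcription start. An ISRE-type motif, spelled GAAANNGAAA and searched on both strands, was found in the windows of 17 of the 30 (56.7%), and in 3.99% of all 27025 genes with a window. A GAS-type motif, TTCNNNGAA, which reads the same on either strand, was found in 10 of the 30 (33.3%), and in 9.55% of all genes. A match is a string of letters and not a measured binding site. The 150 bases before the start are printed 5′ to 3′ along the gene for the members that carry the results below, with the ISRE-type motif in capitals for Ifit1, Isg15, Oas1a and Gbp2 and the GAS-type motif in capitals for Irf1 and Psmb8. Tap1 is printed because it is the member called below, and it held neither motif.
Ifit1 (chr19:34640739-34640888, plus strand): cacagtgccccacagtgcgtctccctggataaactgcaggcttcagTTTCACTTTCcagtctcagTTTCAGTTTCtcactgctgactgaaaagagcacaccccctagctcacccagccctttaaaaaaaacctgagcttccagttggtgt
Isg15 (chr4:156200819-156200968, minus strand): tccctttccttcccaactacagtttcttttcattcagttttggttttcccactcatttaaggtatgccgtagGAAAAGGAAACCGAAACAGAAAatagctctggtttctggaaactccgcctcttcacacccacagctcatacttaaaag
Oas1a (chr5:120907526-120907675, minus strand): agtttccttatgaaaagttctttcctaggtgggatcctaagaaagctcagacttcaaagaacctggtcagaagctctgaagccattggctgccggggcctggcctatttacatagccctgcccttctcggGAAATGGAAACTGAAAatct
Gbp2 (chr3:142620513-142620662, plus strand): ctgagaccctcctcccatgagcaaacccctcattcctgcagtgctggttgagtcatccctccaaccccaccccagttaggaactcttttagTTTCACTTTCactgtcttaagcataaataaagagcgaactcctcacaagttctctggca
Irf1 (chr11:53769864-53770013, plus strand): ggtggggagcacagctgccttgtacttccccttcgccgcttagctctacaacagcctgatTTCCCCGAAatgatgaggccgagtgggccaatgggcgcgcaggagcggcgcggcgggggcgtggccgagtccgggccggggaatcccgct
Psmb8 (chr17:34198045-34198194, plus strand): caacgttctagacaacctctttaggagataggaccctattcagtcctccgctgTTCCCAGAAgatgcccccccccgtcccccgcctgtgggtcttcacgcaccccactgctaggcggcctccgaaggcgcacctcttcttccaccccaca
Tap1 (chr17:34187406-34187555, plus strand): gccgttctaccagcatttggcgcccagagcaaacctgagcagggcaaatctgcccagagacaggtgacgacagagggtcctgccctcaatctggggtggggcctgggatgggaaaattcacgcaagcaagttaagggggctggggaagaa
In Ifit1 the motif lay on the opposite strand, and its first printed base was 104 and 85 bases before the start. In Isg15 the motif occurred 3 times in overlap, from 78, 72 and 66 bases before the start, and in Oas1a it occurred at 20 and 14 bases. Irf1 is shown at the first of its 2 listed starts. The Tap1 and Psmb9 starts face away from each other with 225 bases between them, so the printed Tap1 stretch is also the upstream sequence of Psmb9.

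Vehicle mouse 3 stood apart from the other control mice in most of these genes, and this has to be known before any dose is compared. It held the highest of the 5 vehicle values for 30 of the 37 members, whereas it held the highest for 23.9% of all matched genes. It was also the highest of all 18 mice for 22 members. With each gene set against its own median over the 18 mice, the mean over the members was 1.04 in vehicle mouse 3. It was -0.07, -0.09, -0.24 and 0.16 in vehicle mice 1, 2, 4 and 5. No other mouse of any group exceeded 0.50, the value of medium-dose mouse 15.

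**Figure D1:**
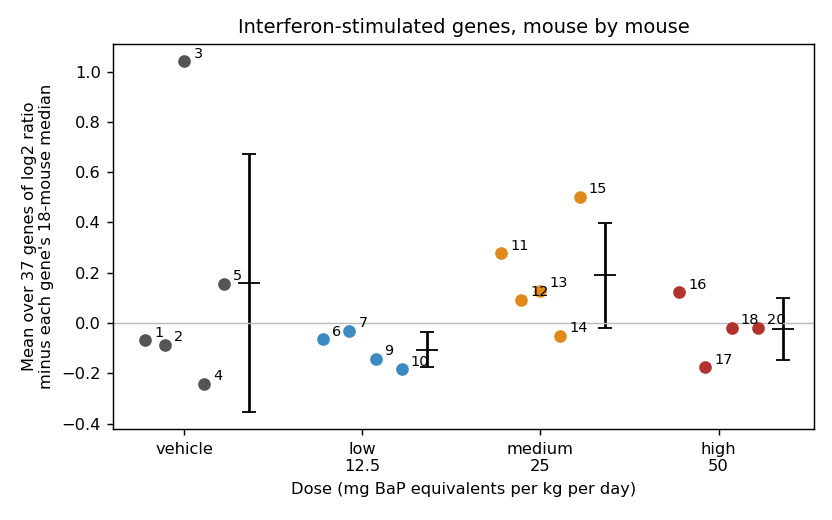
Mean over the 37 interferon-stimulated genes of the log2 ratio minus each gene's median over 18 mice (y axis), by dose group (x axis); each point is a mouse with its number, and bars give the group mean ± SD. Vehicle mouse 3 lies at 1.04 and medium-dose mouse 15 at 0.50, while the other 16 mice lie between -0.24 and 0.28.

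The members furthest above the other vehicle mice were the antiviral effectors and their regulators. Ifit1, which binds RNA lacking the host cap, was 2.87 log2 units higher in vehicle mouse 3 than the mean of the other 4 vehicle mice, which is 7.3-fold. Isg15, a ubiquitin-like protein joined to newly made proteins, was higher by 2.80. Ifi44 and Oasl1 were both 2.45 higher, Oas1a and Oasl2 both 2.26 higher, Irf7 1.98 higher, Rtp4 1.87 higher and Usp18, which removes Isg15 and dampens the interferon receptor, 1.82 higher. In all, 18 members were more than 1 log2 unit higher, among them all 3 Ifit genes. Among the 20660 matched genes ranked by this difference, 13 of the first 50 and 19 of the first 100 were members. Cxcl10, an interferon-induced chemokine that is not a member, was 3.84 higher, and Saa3, an acute-phase gene, ranked first with 4.57. AA467197, Saa1, Timp1 and Orm2, also not members, were among the first 10, with 2.85, 2.56, 2.39 and 2.29. These names of non-members were chosen from their values.

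The antigen-processing genes, Gbp2, Gbp7 and Irf1 stood closer to the other vehicle mice. Psmb9 was 0.08 higher than in the other vehicle mice, Psmb8 0.32 and Tap1 0.54, while Gbp2, Gbp7 and Irf1 stood at -0.22, -0.12 and -0.14. The 5 IRG genes lay in between, at 0.59 to 1.26, and so did Gbp3 at 0.81. A second probe gave a like difference for Isg15 (2.47), Oas1a (1.87), Zbp1 (1.17), Iigp1 (1.17) and Irgm1 (0.99). For Xaf1 the second probe gave 0.44 against 1.45 by the brighter one, for Ddx58 0.36 against 0.66, and for Ifih1 0.02 against 0.64, with the second Ifih1 probe above background on 13 arrays. The difference was in the lung channel: for Isg15 the Cy5 log2 intensity alone differed by 2.41 and the Cy3 intensity of the reference by -0.06, and for Ifit1 by 2.41 and -0.09. Ifit3 was the exception, with 2.11 in Cy5 and 0.95 in Cy3. The share of probes above background on this array was 53% in Cy5, against 51.5% to 61.1% over all arrays. With 1 mouse there is no test of these differences, and whether they belong to the animal, the tissue piece or the array was not tested.

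The members with the ISRE-type motif were not all high in vehicle mouse 3, and those without it were not all low. The median difference from the other vehicle mice was 0.81 for the 17 members with the motif and 0.59 for the 13 without. Irf7, Oasl1 and Ifi44, which had no match in their windows, were among the highest, and Gbp2, which had one, was among the lowest.

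**Figure D2:**
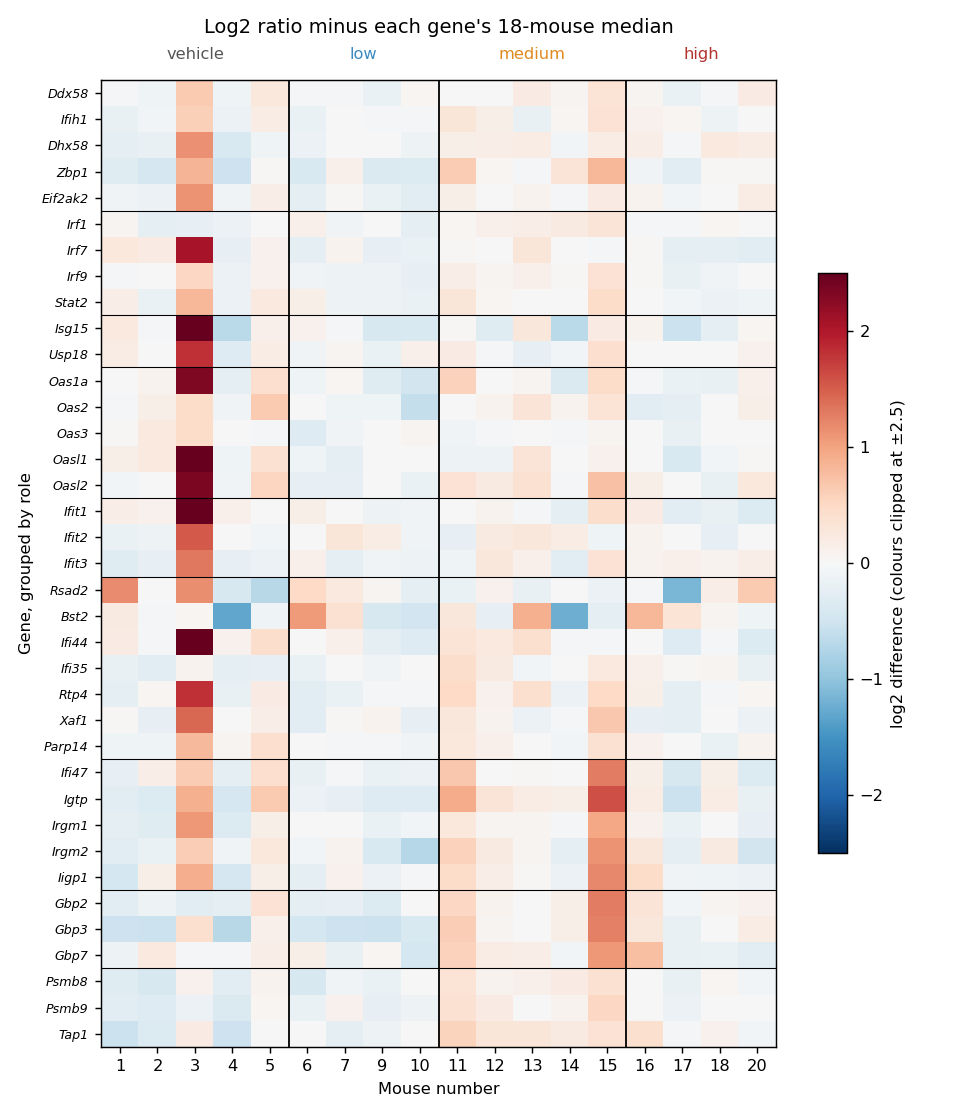
Log2 ratio minus each gene's median over 18 mice (colour, clipped at ±2.5) for 37 interferon-stimulated genes (rows, grouped by role) in 18 mice (columns, grouped by dose). The red column of vehicle mouse 3 is strongest in the Ifit1, Isg15, Ifi44, Oasl1, Oasl2, Oas1a and Irf7 rows and weaker in the Oas2 and Oas3 rows. Medium-dose mouse 15 is red in the IRG and Gbp rows.

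Medium-dose mouse 15 stood out most in the IRG and Gbp genes. It held the highest of the 5 medium-dose values for 27 of the 37 members, against 22.4% of all matched genes. All 5 IRG genes and all 3 Gbp genes, GTPases that act on vacuoles around intracellular microbes, were 0.88 to 1.22 log2 units above the mean of the other 4 medium-dose mice, led by Igtp at 1.22 and Ifi47 at 1.11. The Oas genes were 0.08 to 0.51 above it, and Irf7, Ifit2 and Ifi44 stood at -0.11, -0.22 and -0.28. Of the 18 members more than 1 unit higher in vehicle mouse 3 and the 11 more than 0.5 higher in medium-dose mouse 15, 5 were shared. That is 27.8% of the first and 45.5% of the second. The limits differ, and 18 of all 37 members passed the first, a share close to that among the 11. The overlap therefore does not set the 2 mice apart. The IRG and Gbp genes also stood high in other mice. Set against each gene's 18-mouse median, their means were 1.24 and 1.21 in medium-dose mouse 15 and 0.58 and 0.57 in medium-dose mouse 11. In vehicle mouse 3 they were 0.82 and 0.02, and in vehicle mouse 5 they were 0.33 and 0.22.

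**Figure D3:**
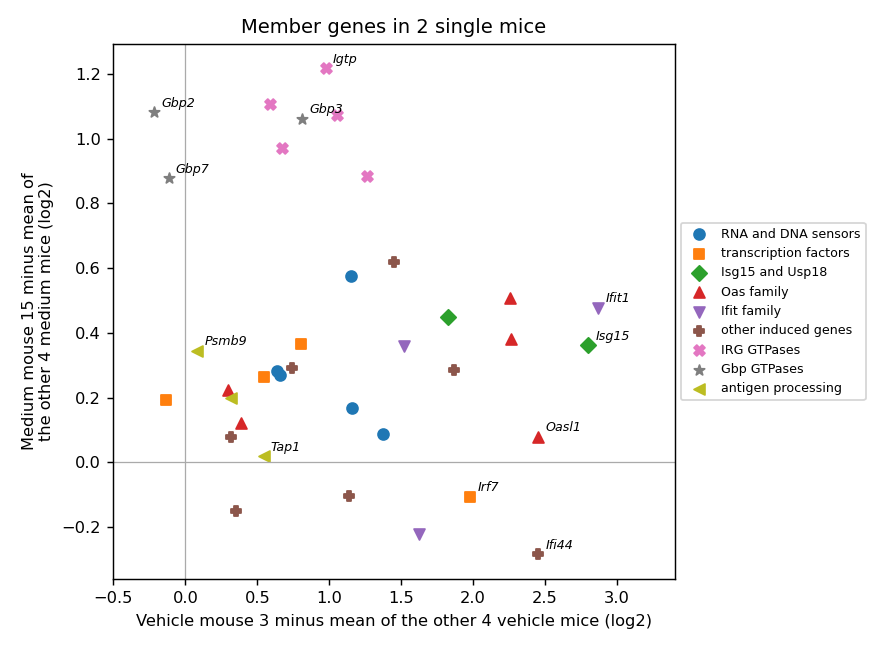
Each point is 1 of 37 interferon-stimulated genes; x is vehicle mouse 3 minus the mean of the other 4 vehicle mice and y is medium-dose mouse 15 minus the mean of the other 4 medium-dose mice, both in log2 units, with the role given by colour and shape. The IRG and Gbp GTPases lie at 0.88 to 1.22 on y, and Ifit1 and Isg15 lie farthest right at 2.87 and 2.80.

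The 3 doses were then compared with the vehicle to ask whether the mixture altered the interferon-stimulated genes in lung. A gene was called at a Benjamini-Hochberg adjusted p of 0.05 or less, over all 55681 probes, in limma's linear model and a change of 1.5-fold or more. At the low dose 0 members were called, where 0.0898% of all probes were. At the medium dose 1 of 37 was called, Tap1, where 0.726% of all probes were, and at the high dose 0, where 1.2% of all probes were. Between the high and low doses 0 members were called, where 0.0449% of all probes were. At an unadjusted limma p under 0.05 there were 7 members at the low dose (8.01% of all probes). There were 8 at the medium dose, where 15.3% of all probes passed, and 6 at the high dose, where 15.7% did. All 7 at the low dose and 5 of the 6 at the high dose were lower than in vehicle, and all 8 at the medium dose were higher. Without vehicle mouse 3 these counts were 3, 15 and 8 in order of dose, of which 2, 0 and 3 were lower. Over all 55681 probes they were then 4034, 8294 and 8245.

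The direction of the members as a set depended on vehicle mouse 3. With all mice, 32 of 37 members were lower at the low dose than in vehicle, with a median log2 fold change of -0.22 against 0.00 over all probes. At the medium dose 19 were lower and 18 higher, with a median of -0.00, and at the high dose 27 were lower, with a median of -0.15. Without vehicle mouse 3 the medians were -0.09, 0.21 and 0.02, and 14, 30 and 21 of the 37 were higher, in order of dose. Over all probes 28729, 28566 and 28553 of 55681 were then higher, with a median of 0.00 at each dose. The mouse was set apart by the values of these same members, so figures without it only describe the fit. Median centring in place of loess also turned the median at the high dose, to 0.03, with 21 of 37 higher, and gave 0.13 with 25 of 37 higher at the medium dose. That scaling moved all probes as well, to medians of 0.03 and 0.02 at the high and medium dose, with 31739 and 30857 of 55681 higher. At the high dose the members thus stood where all probes did. Within slides, the median over the members at the medium dose was 0.30 and 0.29 above vehicle on slides 1 and 3, and stood at -0.33 on slide 2, which held vehicle mouse 3. On slides 1, 2 and 3 it was 0.02, -0.45 and -0.32 at the low dose and 0.13, -0.32 and -0.16 at the high dose, so that slide 3, with 1 mouse per group, was also below 0 at both. The 3 comparisons share their vehicle mice.

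**Figure D4:**
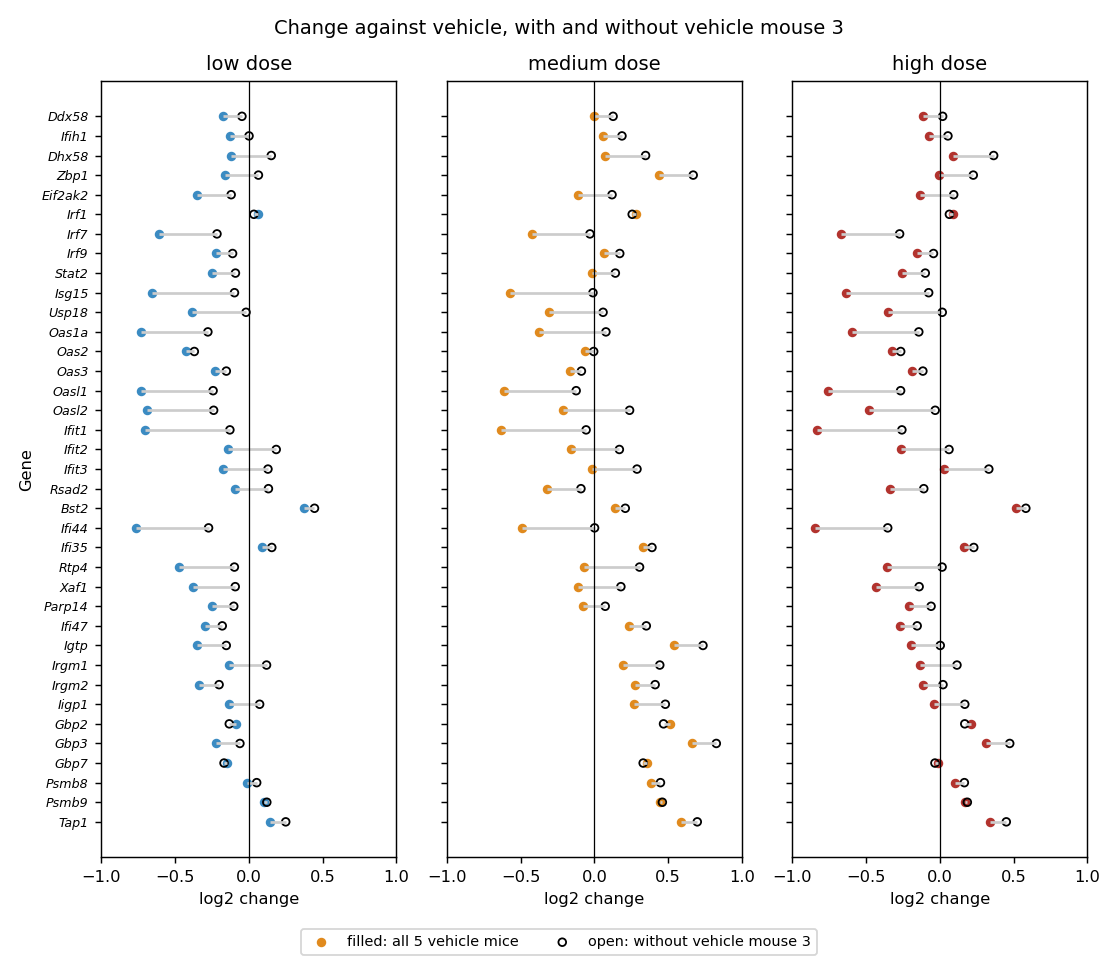
Log2 change against vehicle (x axis) of 37 interferon-stimulated genes (y axis) at the low, medium and high dose, fitted with all 5 vehicle mice (filled) and without vehicle mouse 3 (open). Leaving the mouse out shifts Isg15, Ifit1, Irf7 and the Oasl genes to the right, and moves Psmb9 at the medium dose only from 0.44 to 0.46.

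Among the 37 members, the 3 for antigen processing gave the clearest difference from vehicle. Tap1 is a subunit of the transporter that carries peptides into the endoplasmic reticulum for loading on MHC class I. In vehicle mice 1 to 5 it lay at -0.86, -0.66, -0.12, -0.84 and -0.32. In medium-dose mice 11 to 15 it lay at 0.23, -0.02, -0.02, -0.09 and 0.04, so that each medium-dose mouse was above each vehicle mouse. It was the only one of the 37 members without overlap, and 2.31% of all probes had their medium-dose mice above the vehicle mice in this way. A count of 1 in 37 is close to that share, so it does not set the members apart from other probes. The low-dose values were -0.33, -0.56, -0.45 and -0.34 and the high-dose values 0.08, -0.35, -0.22 and -0.38, and both groups overlapped the vehicle mice.

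At the medium dose Tap1 rose by 0.59 ± 0.12 (SE, n = 5 and 5; 1.5-fold; limma adjusted p = 0.0088), and the two-sided exact permutation test gave p = 0.0079, the smallest that 5 mice against 5 allow. The change was 0.14 at the low dose (adjusted p = 0.86) and 0.34 at the high dose (adjusted p = 0.17). Within the slides that held both groups the medium dose exceeded the vehicle by 0.86, 0.43 and 0.36 on slides 1, 2 and 3. The rise lay just past the fold change limit, and it was 0.51 to 0.56, under that limit, when vehicle mouse 1, 2 or 4 or medium-dose mouse 11 was left out, with adjusted p from 0.026 to 0.031. Without vehicle mouse 3 it was 0.70 (adjusted p = 0.0016), and the high dose then gave 0.45 (adjusted p = 0.039), also under the limit.

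Psmb8 and Psmb9, named after their values were seen, are catalytic subunits that replace their constitutive counterparts in the immunoproteasome, the protease that cuts peptides for MHC class I. At the medium dose Psmb9 differed from vehicle by 0.44 ± 0.10 (limma adjusted p = 0.012) and Psmb8 by 0.38 ± 0.10 (adjusted p = 0.040), 1.36-fold and 1.31-fold. Psmb9 lay at 1.08, 1.02, 1.20, 0.98 and 1.40 in the vehicle mice and at 1.72, 1.54, 1.36, 1.44 and 1.86 in the medium-dose mice. The groups overlapped only in that vehicle mouse 5 exceeded medium-dose mouse 13. With Irf1 and Tap1 these made 4 of 37 members at an adjusted p of 0.05 or less without a fold change limit, where 3.54% of all probes passed. All 3 antigen-processing members were thus past the adjusted threshold at the medium dose, and none was at the low or high dose with all mice. Without medium-dose mouse 15, Tap1 and Psmb9 passed it (adjusted p = 0.019 and 0.036) and Psmb8 did not (0.10).

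Among the transcription factors, Irf1, a factor induced directly by type II interferon, was 0.28 ± 0.08 higher at the medium dose (limma adjusted p = 0.0497), which is 1.22-fold and under the fold change limit. It lay at 1.88, 1.58, 1.60, 1.66 and 1.82 in the vehicle mice and at 1.86, 1.93, 1.98, 2.04 and 2.14 in the medium-dose mice. The low-dose mice lay at 1.93, 1.74, 1.81 and 1.60 and the high-dose mice at 1.79, 1.76, 1.86 and 1.80. The groups overlapped, since vehicle mouse 1 was above medium-dose mouse 11. The adjusted p at the medium dose was 0.11 without vehicle mouse 3 and 0.13 without medium-dose mouse 15.

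Irf7, the factor that amplifies type I interferon production, lay at -1.44, -1.50, 0.37, -1.91 and -1.60 in the vehicle mice. It lay at -1.93, -1.60, -1.90 and -1.87 in the low-dose mice, at -1.68, -1.71, -1.40, -1.68 and -1.72 in the medium-dose mice and at -1.68, -1.95, -1.93 and -1.97 in the high-dose mice. Vehicle mouse 3 was alone above 0. The exposed mice lay within or just below the other vehicle mice, except medium-dose mouse 13, which was slightly above them. The difference at the high dose was -0.67 ± 0.28 (limma adjusted p = 0.22), and -0.27 without vehicle mouse 3. Stat2, a subunit of the ISRE-binding complex, lay at 0.75, 0.41, 1.41, 0.44 and 0.82 in the vehicle mice. In the exposed mice it lay at 0.72, 0.45, 0.46 and 0.42 (low), 0.90, 0.63, 0.59, 0.58 and 1.04 (medium) and 0.59, 0.52, 0.44 and 0.48 (high). The high-dose values lay inside the range of the other vehicle mice, and the difference was -0.26 with all mice and -0.10 without vehicle mouse 3. Irf9, the DNA-binding partner in that complex, differed from vehicle by -0.22, 0.06 and -0.15 in order of dose.

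Isg15 lay at -0.81, -1.08, 1.67, -1.72 and -0.92 in the vehicle mice. It lay at -0.94, -1.09, -1.45 and -1.44 in the low-dose mice, at -1.02, -1.35, -0.77, -1.72 and -0.85 in the medium-dose mice and at -0.96, -1.60, -1.28 and -0.99 in the high-dose mice. All exposed mice fell among vehicle mice 1, 2, 4 and 5 except medium-dose mouse 13, which was slightly above them. The differences of -0.66, -0.57 and -0.64 (limma adjusted p from 0.52 to 0.75) became -0.10, -0.01 and -0.08 without vehicle mouse 3. Usp18 went from -0.38, -0.31 and -0.35 to -0.02, 0.06 and 0.02.

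**Figure D5:**
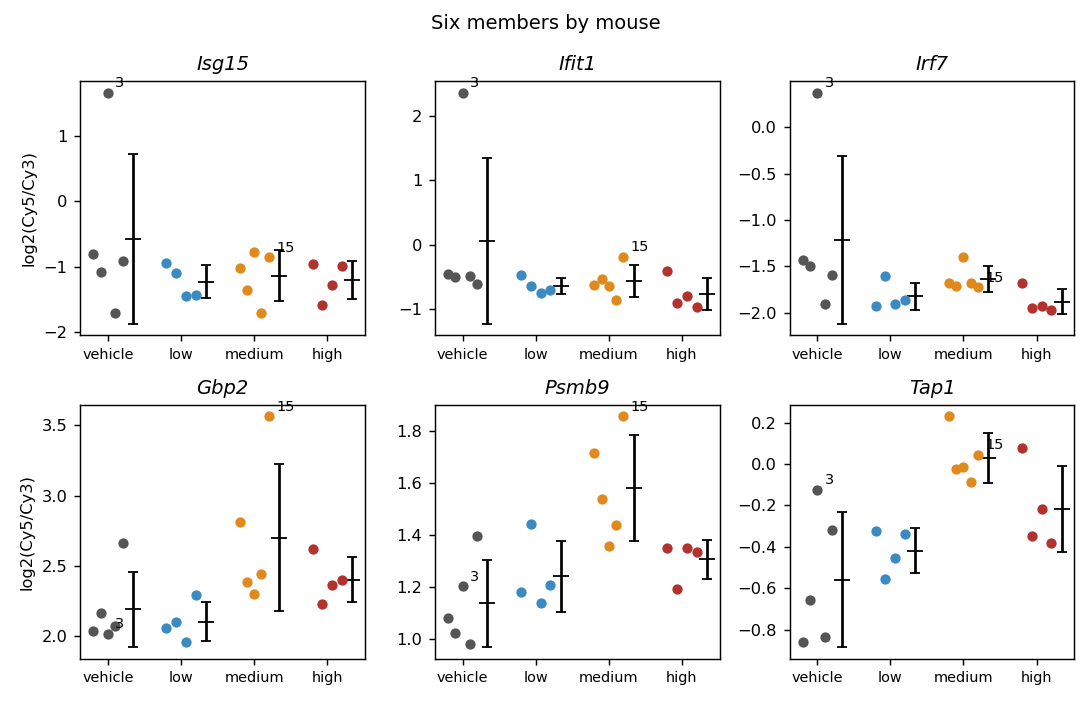
Log2 ratio of Cy5 over Cy3 (y axis) of Isg15, Ifit1, Irf7, Gbp2, Psmb9 and Tap1 in each mouse by dose group (x axis), with bars for the group mean ± SD and the points of vehicle mouse 3 and medium-dose mouse 15 numbered. Tap1 is the panel in which all medium-dose points (-0.09 to 0.23) lie above all vehicle points (-0.86 to -0.12).

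The Oas genes make the short oligoadenylates that activate the RNA-degrading enzyme RNase L, and the Oasl proteins resemble them. All 5 were lower at the low dose with an unadjusted limma p under 0.05, with a median of -0.69, and none passed the adjusted threshold. All 5 were also lower at the high dose, with a median of -0.48. Without vehicle mouse 3 the medians were -0.24 and -0.14. Under the 6 other scalings that alter the ratios all 5 were also lower at the low and high dose.

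Oas1a lay at -1.70, -1.61, 0.65, -1.90 and -1.26 in the vehicle mice. It lay at -1.80, -1.64, -1.99 and -2.14 (low), -1.11, -1.67, -1.62, -2.06 and -1.23 (medium) and -1.74, -1.85, -1.88 and -1.57 (high), so that the exposed mice spread around the other 4 vehicle mice. Oas2 is the Oas gene whose value depended least on that mouse, with -1.46, -1.26, -0.95, -1.50 and -0.76 in the vehicle mice. It lay at -1.41, -1.51, -1.53 and -2.01 (low), -1.42, -1.33, -1.10, -1.33 and -1.07 (medium) and -1.68, -1.67, -1.43 and -1.27 (high). The low-dose mice were at the lower end of the vehicle range or below it, and the difference was -0.43 with all mice (adjusted p = 0.37) and -0.37 without vehicle mouse 3 (adjusted p = 0.61).

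Oas3 differed less between mice than the other Oas genes at the medium dose. It lay at -1.20, -0.99, -0.78, -1.21 and -1.25 (vehicle), -1.55, -1.32, -1.22 and -1.16 (low), -1.31, -1.27, -1.23, -1.28 and -1.15 (medium) and -1.22, -1.41, -1.24 and -1.22 (high). Vehicle mice 2 and 3 were above all 13 exposed mice, while vehicle mice 1, 4 and 5 lay among them. Oasl1 lay at -2.84, -2.74, -0.37, -3.10 and -2.61 (vehicle), -3.09, -3.21, -2.99 and -2.97 (low), -3.10, -3.11, -2.65, -2.98 and -2.88 (medium) and -2.99, -3.36, -3.05 and -2.95 (high). All exposed mice but medium-dose mouse 13 lay below vehicle mice 1, 2 and 5, and the difference at the high dose was -0.76 with all mice (adjusted p = 0.27) and -0.27 without vehicle mouse 3 (adjusted p = 0.28).

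Ifit1 lay at -0.45, -0.50, 2.36, -0.48 and -0.61 in the vehicle mice. It lay at -0.47, -0.63, -0.75 and -0.71 (low), -0.62, -0.53, -0.64, -0.86 and -0.18 (medium) and -0.41, -0.90, -0.80 and -0.96 (high). The other 4 vehicle mice lay close together, and 3 of the 4 high-dose mice lay below them. The difference at the high dose was -0.83 ± 0.39 (limma adjusted p = 0.31) with all mice and -0.26 (adjusted p = 0.35) without vehicle mouse 3. Ifit2 and Ifit3 differed from vehicle by -0.26 and 0.03 at the high dose, and by 0.06 and 0.33 without that mouse.

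Ifi44 had the smallest unadjusted p at the high dose after Tap1. It lay at -2.12, -2.39, 0.29, -2.22 and -1.91 (vehicle), -2.33, -2.20, -2.56 and -2.65 (low), -2.00, -2.09, -1.94, -2.39 and -2.39 (medium) and -2.35, -2.66, -2.37 and -2.69 (high). All high-dose mice lay below vehicle mice 1, 3, 4 and 5, and mice 17 and 20 also below vehicle mouse 2. The difference of -0.84 (adjusted p = 0.21) became -0.35 (adjusted p = 0.17) without vehicle mouse 3. Xaf1, an interferon-induced gene linked to cell death, lay at 1.02, 0.77, 2.42, 0.97 and 1.15 (vehicle), 0.69, 1.01, 1.07 and 0.77 (low), 1.26, 1.07, 0.84, 0.96 and 1.65 (medium) and 0.78, 0.74, 0.99 and 0.83 (high). The high-dose mice lay within or just below the other vehicle mice. The second Xaf1 probe gave 0.07 at the high dose, against -0.43 by the brighter one. Rsad2 and Bst2, which block virus assembly and release, varied widely among vehicle mice, from 0.47 to 2.35 and from -2.09 to -0.57, and differed from vehicle by -0.34 and 0.51 at the high dose (adjusted p = 0.72 and 0.56). Of the other members of this kind, Ifi35 was 0.33 higher at the medium dose (adjusted p = 0.059), Rtp4 stood at -0.07 and Parp14 at -0.07.

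The sensors Ddx58 (RIG-I), Ifih1 (MDA5) and Dhx58, the Z-nucleic acid sensor Zbp1 and the RNA-dependent kinase Eif2ak2 differed from vehicle by -0.35 to -0.12 at the low dose and by -0.14 to 0.09 at the high dose. These ranges are of the brighter probes. The second Ddx58 probe gave -0.06 and 0.23 at the low and high dose, against -0.18 and -0.11 by the brighter one. The second probes of Ifih1 and Zbp1 stayed inside both ranges. Zbp1 was 0.44 higher at the medium dose by its brighter probe (adjusted p = 0.30) and 0.25 by its second (limma adjusted p = 0.60). Without vehicle mouse 3 the brighter probe gave 0.67 (adjusted p = 0.023) and was called, together with Tap1 and Gbp3, so that 3 of 37 members were called where 0.702% of all probes were. That mouse was set apart by these same members' values, so leaving it out raises such differences by construction. The adjusted p-values and the count do not allow for that choice. Dhx58 was then 0.35 higher at the medium dose (adjusted p = 0.023) and 0.36 higher at the high dose (adjusted p = 0.021), under the fold change limit. Zbp1, Gbp3 and Dhx58 are named after their values were seen.

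All 3 Gbp and all 5 IRG members were higher at the medium dose, by 0.35 to 0.66 and by 0.19 to 0.54, and none passed the adjusted threshold with all mice. Both counts held under the 6 other scalings that alter the ratios. Without medium-dose mouse 15 the differences were 0.18 to 0.45 for the Gbp and 0.01 to 0.30 for the IRG members, with Ifi47 and Irgm1 at 0.01, Iigp1 at 0.06 and Irgm2 at 0.08. Gbp2 lay at 2.03, 2.16, 2.01, 2.07 and 2.66 (vehicle), 2.06, 2.10, 1.96 and 2.29 (low), 2.81, 2.38, 2.30, 2.44 and 3.57 (medium) and 2.62, 2.23, 2.36 and 2.40 (high). Each medium-dose mouse was above vehicle mice 1 to 4 and 3 of the 5 were below vehicle mouse 5, and the difference was 0.51 ± 0.18 (adjusted p = 0.13). Gbp3 was 0.66 ± 0.21 higher (adjusted p = 0.089), and 0.83 (adjusted p = 0.029) without vehicle mouse 3. With the slide as a block Gbp3 was also called (0.66, adjusted p = 0.045), and Gbp2 had an adjusted p of 0.029, under the fold change limit. Igtp and Iigp1 differed by 0.54 and 0.27 (adjusted p = 0.34 and 0.67). Medium-dose mouse 15 was the highest of all 18 mice for all 3 Gbp and 4 of the 5 IRG members.

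The spread between mice differed between groups. The median SD of the members was 0.55 in vehicle mice and 0.14, 0.22 and 0.15 in low-, medium- and high-dose mice, against 0.13 to 0.14 over all matched genes. Without vehicle mouse 3 it was 0.21 in vehicle mice.

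The other genes of the interferon pathway showed no called change at any dose. Of the ligands, 9 of 10 had a probe, and Ifnb1, Ifna4 and Ifne were not well above background in any mouse. Ifng was above background in 3 of 5 vehicle mice in 1 of 4 low-dose and 2 of 5 medium-dose mice and in no high-dose mouse. The 6 receptor genes had median changes of 0.05, -0.01 and -0.08 in order of dose, with Ifnar1 at 0.20, 0.16 and -0.11 and Ifngr1 at 0.04, -0.06 and 0.05. None of 13 signalling, 14 nucleic acid sensing, 29 other interferon-induced or 10 further MHC class I pathway genes with a probe was called. Of the last 10, H2-K1, H2-D1 and B2m make the class I molecule. Tap2, Tapbp, Psmb10, Psme1, Psme2, Erap1 and Nlrc5 serve its peptide supply or control. At the medium dose 7 of the 10 were higher and 3 lower (B2m, Psme1 and Tapbp), with a median of 0.06, from -0.07 to 0.47. The 3 largest rises, named after their values were seen, were Nlrc5 at 0.47 (limma adjusted p = 0.18), H2-D1 at 0.26 (0.078) and Tap2 at 0.25 (0.25). None of the 10 passed the adjusted threshold at this dose.

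Markers of cell types that make or answer interferons were read beside these results. Among 10 cytotoxic lymphocyte markers, Ccl5 fell at all doses (by 1.01, 0.92 and 1.54, adjusted p from 5.3e-05 to 0.031) and Gzma fell by 2.25 at the high dose (adjusted p = 0.0021). The mean of this list over each gene's 18-mouse median was -0.19 to 0.60 in vehicle, -0.28 to 0.21 in low-dose, -0.21 to 0.16 in medium-dose and -0.53 to -0.23 in high-dose mice. It was 0.14 in vehicle mouse 3 and 0.13 in medium-dose mouse 15, inside the range of the other vehicle mice. The means of 6 plasmacytoid dendritic cell, 6 macrophage and 5 neutrophil markers in vehicle mouse 3 were -0.05, -0.04 and 0.07. Within the macrophage list, Marco in that mouse was the highest of all 18 mice (6.26) and Siglecf the lowest (2.60). Both are named after their values were seen. The neutrophil value and the fibroblast value of 0.54 were the highest of the vehicle mice, and the endothelial and lung epithelial values of -0.38 and -0.16 were the lowest. Medium-dose mouse 15 had the highest neutrophil (0.40) and the lowest epithelial mean (-0.40) of its group. All 7 lung epithelial markers were well above background on all arrays. Other markers called were Mmp8, higher at the medium and high dose (0.78 and 0.98), Ms4a1 and Cd79b, higher at the medium dose (both 0.70), Pecam1, higher at both (0.69 and 0.74) where 3 of the 5 endothelial markers were lower, and Col1a1, Col1a2 and Dcn, lower at both (-0.94 to -0.64). Without vehicle mouse 3 the calls that remained were Ccl5 at the medium and high dose, Gzma, Mmp8 and Pecam1 at the high dose, and Col1a1 and Dcn at the medium dose. Ccl5 at the low dose was then -0.99 (adjusted p = 0.078). Marco, in the macrophage list, was called at the medium and high dose only without that mouse. With all mice its differences were 1.09 and 1.25. Its value was highest in vehicle mouse 3, so leaving that mouse out raises these differences by construction. The part of any of these in the members' values was not tested.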

How the data were processed

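Lung RNA of 18 mice was measured on 2-colour Agilent arrays. The authors deposited median signal intensities of both channels as their scanner software wrote them (version 11.0.1.1 per the file headers), its log10 ratios of Cy5 over Cy3, and a table of normalized log2 ratios. Here log2 ratios of the median intensities, without background subtraction, were loess-normalized within arrays in R 4.3.3 with limma 3.58.1. Control spots had weight 0 and, like 409 to 553 outlier spots per array, were left out, and spots of a probe were averaged. The 4 groups were fitted together by limma (one group mean each), standing in for the study's MAANOVA, and p-values were adjusted by Benjamini-Hochberg over 55681 probes per comparison. Accessions were named through a RefSeq table of assembly GRCm38.p6, which matched 27235 probes.

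The members and gene lists were chosen with earlier results of these data known. All members are accounted for. Those given mouse by mouse were set by a rule, except Psmb9, which was added after its values were seen: members called in any comparison, then those with the smallest unadjusted p at the high dose up to 10, plus Irf7, Stat2, Isg15, Irf1 and Gbp2; from the other lists, genes called in any comparison, Ifng, Ifnb1, Ifnar1 and Ifngr1. A further gene of the rule is not reported here. Exact two-sided permutation tests were run on each member, and these cannot go below 0.0079 for 4 or 5 mice against 5. The mean intensity was not used here, so normexp took median signals. The arrays lay on 3 slides, and the column on a slide followed the dose group, so column and dose cannot be told apart. The median Cy5 intensity was 110 to 142 per array. Precision is limited by the number of arrays. The fit was tested on simulated data. The alternatives were normexp with an offset of 50, the scanner ratios, the authors' table, median centring, scale, Aquantile, Cy5 alone, a block for the slide, leaving out probes near background, fitting only the groups compared, no fold change limit, all probes of a gene, and each mouse left out in turn.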

Additional observations from a re-analysis of the deposited data

Results flagged for a closer look

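In each dose group of the members given mouse by mouse and of Psmb8, the gap between the most extreme mouse and its nearest neighbour was divided by the range of the group and set against Dixon's 95% critical value. Chance passes about 1 in 20 groups. Vehicle mouse 3 was the extreme, as the highest, for Ifit1 (0.946), Oasl1 (0.821), Ifi44 (0.818), Irf7 (0.794), Xaf1 (0.768), Oas1a (0.748) and Isg15 (0.733). Over all 37 members 27 of 148 groups passed, and 15 of these were vehicle mouse 3. Vehicle mouse 5 was the highest for Gbp2 (0.773). Irf7 was highest in medium-dose mouse 13 (0.852) and, at the high dose, in mouse 16 (0.863), and Stat2 was highest in low-dose mouse 6 (0.88). High-dose mouse 17 was the lowest for Psmb9 (0.905) and Oas3 (0.904).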

How the results depend on the processing

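No analysis paired by animal was possible because the mice of different groups share no replicate numbers. Each row of a slide did hold mice of different groups. The main fit left this layout out, and an alternative took the slide as a block. No member was called at the low dose, at the high dose or between the high and low dose under any alternative, by limma. At the medium dose the count was 1 under 8 alternatives (Aquantile, among them, leaves the ratios as they are), 0 with median centring (Tap1 0.59, adjusted p = 0.76) or Cy5 alone (Tap1 0.57, adjusted p = 0.012), 2 with the slide as a block and 4 without a fold change limit, and it was 0 to 3 with each mouse left out. It was 0 without vehicle mouse 1, 2 or 4 or medium-dose mouse 11, 2 without medium-dose mouse 13 and 3 without vehicle mouse 3. With scale normalization the 1 gene called was Gbp2 (0.61, adjusted p = 0.047), not Tap1 (0.58). Calls over all probes fell with median centring from 50, 404 and 670 to 3, 32 and 80 in order of dose, and with the scanner's ratios were 33, 696 and 1075. Without a fold change limit they were 93, 1969 and 2325. The median over the members, leaving out each mouse, ranged from -0.28 to -0.09, -0.09 to 0.21 and -0.22 to 0.02 at the 3 doses and from 0.04 to 0.12 between high and low. The cause was not tested. Uncalled log2 differences that changed sign between the high and low dose were Oas3 (normexp -0.0489, scale -0.0309), Stat2 (normexp 0.0035, scanner 0.0429, deposited log2 ratios 0.0059, median centring 0.0981, scale 0.0186, Cy5 alone 0.0024), Irf7 (median centring 0.0148), Oasl1 (median centring 0.0837, Cy5 alone 0.0168), Xaf1 (median centring 0.0641), Isg15 (scale -0.0494, Cy5 alone -0.0110) and Ifi44 (Cy5 alone 0.0707). Against vehicle they were Gbp2 at the low dose (median centring 0.0188) and, at the medium dose, Oas2 (median centring 0.0607), Xaf1 (median centring 0.0422) and Stat2 (median centring 0.128, scale 0.0099). With a mouse left out, signs also turned between the high and low dose for Oas3 (-0.0410 to 0.0893), Stat2 (-0.0379 to 0.0609), Isg15 (-0.0605 to 0.15), Irf7 (-0.125 to 0.0170), Oasl1 (-0.0727 to 0.0663), Xaf1 (-0.113 to 0.0143), Oas2 (-0.0281 to 0.172) and Irf1 (-0.0267 to 0.0851), at the medium dose for Stat2 (-0.11 to 0.14), Ifi44 (-0.67 to 0.00141), Xaf1 (-0.23 to 0.18), Oas1a (-0.559 to 0.0783) and Oas2 (-0.142 to 0.0426), and at the low dose for Gbp2 (-0.152 to 0.0291). All members were above background, so signal did not limit them, whereas Ifnb1, Ifna4 and Ifne have no measured level.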
